A study of Homo sapiens with 4 samples.

Results

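Eph receptors are a family of receptor tyrosine kinases, and ephrins are the ligands that they meet on the surface of neighbouring cells. Ephrin-A ligands are held to the membrane by a lipid anchor and bind mainly EphA receptors, while ephrin-B ligands span the membrane and bind mainly EphB receptors. Signals run in both directions, forward into the cell with the receptor and in reverse into the cell with the ephrin, and they are known for steering cell adhesion, repulsion, and migration in epithelia, vessels, and the nervous system. Described here are 10 genes of this family, of 20372 genes in the table. Their rows were found by gene symbol, and the members were chosen with earlier results of these data known. They are the EphA receptors EPHA1, EPHA2, and EPHA4, the EphB receptors EPHB2, EPHB3, and EPHB4, the ephrin-A ligands EFNA1 and EFNA5, and the ephrin-B ligands EFNB1 and EFNB2.

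The RNA came from TPC1, an established human thyroid cancer cell line that carries a CCDC6-RET fusion. All cells received BLU6864, a selective RET inhibitor, for 6 h or for 24 h, and 2 libraries were sequenced at each time. The comparison asks which genes differ between an early and a later time under the RET inhibitor. Because both groups were treated and untreated cells were not analysed here, the effects of drug exposure and of time in culture cannot be told apart. The labels give a dose of 100 µM, whereas the methods give the same figure in nM. The 24 h libraries are marked as a re-analysis and the 6 h libraries are not, so whatever this mark stands for cannot be told apart from time. TPC1 is a single line, so nothing here speaks to other thyroid cancers. Neither the labels nor the methods say whether the libraries of a time came from separate cultures, so the P values measure the spread between these libraries, which may be technical.

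Total counts lay between 23917056 and 27457040, and mitochondrial genes took 1.65% and 2.43% of the 6 h libraries and 1.40% and 1.56% of the 24 h libraries, so this share was higher in both 6 h libraries and highest in the second. Of the 7 thyroid markers, PAX8, a transcription factor of the thyroid lineage, had at least 19124 counts in each library and overlapped between the times. FOXE1, another such factor, was called higher at 24 h, with 273 and 279 counts at 6 h and 462 and 556 at 24 h. TG, which encodes thyroglobulin, was called lower, with 186 and 245 counts at 6 h and 98 and 111 at 24 h, and TSHR and NKX2-1 had 0 counts in all 4 libraries. Of 8 white blood cell markers, 4 had at most 3 counts in any library, and the summed normalized count of the list was 72.3 and 65.2 at 6 h and 101 and 106 at 24 h. Most of this sum was CD14, a monocyte gene, which was called higher, with 47 and 41 counts at 6 h and 85 and 91 at 24 h. FCER1G, the only other marker tested, was lower in both 24 h libraries, with 7 and 11 counts against 13 and 19 at 6 h. It was not called (log2 fold change -0.87, edgeR adjusted P = 0.0844). Endothelial markers are of interest because EPHB4 and EFNB2 are used as markers of veins and arteries, and their sum was 575 and 550 at 6 h against 75.7 and 57.4 at 24 h. At 6 h most of it came from KDR, a VEGF receptor gene, with 485 and 517 counts at 6 h and 44 and 22 at 24 h, while CDH5 and CLDN5 had at most 1 count. VWF was also called lower, with 16 and 11 counts at 6 h and 3 and 5 at 24 h, a call lost under DESeq2, with at least 10 counts asked of every library, and without either 24 h library or the first 6 h library. ERG, at 14 to 26 counts, and ESAM, at 6 to 11, were not called. TEK, at 2 to 8 counts, had too few reads to be tested, and PECAM1 was not in the table. Fibroblast markers summed to 605 and 624 at 6 h and 245 and 291 at 24 h, with COL1A2 and COL3A1 at 0. The fall lay in COL1A1, with 218 and 237 counts at 6 h and 63 and 95 at 24 h, and in PDGFRB. PDGFRB had 303 and 373 counts at 6 h and 111 and 138 at 24 h. In the other direction LUM was called higher, with 39 and 40 counts at 6 h and 71 and 66 at 24 h. That call was lost under DESeq2, without the first 24 h library, and without the second 6 h library. Epithelial markers summed to between 2726 and 2933, mostly KRT8 and KRT18. KRT18 was higher in both 24 h libraries, with 1185 and 1155 counts against 856 and 900 at 6 h. Its rise (log2 fold change 0.37, edgeR adjusted P = 0.000185) was too small to be called, and KRT8 overlapped between the times. In the same list KRT19 was called lower, with 100 and 125 counts at 6 h and 37 and 40 at 24 h, and EPCAM had 11 and 6 counts at 6 h and 1 in each 24 h library. All of these markers were read in bulk RNA of a single cell line. There, a change in the share of its cells that express a gene and a change in RNA per cell cannot be told apart. The part of these markers in the differences of the Eph and ephrin genes was not tested.

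Of the 10 members, 8 had enough reads to be tested. At 24 h the receptors EPHA2, EPHA4, and EPHB2 and the ligands EFNA5 and EFNB1 rose, 4 of them by close to 2-fold and EPHA4 by 5.75-fold. EFNA1, the most abundant ligand, was lower at 24 h, and neither EPHB4 nor EFNB2 differed beyond its error. A gene was called where its log2 fold change exceeded 0.5 in size with an unadjusted P under 0.01 in edgeR's quasi-likelihood test. The methods state these cutoffs for lower genes, and here the same sizes were used in both directions. By this rule 5 members were higher and 0 lower. Among all 12876 genes tested, 17.4% were called higher and 17.7% lower. With a Benjamini-Hochberg adjusted P under 0.05 and no fold cutoff, the 5 members were joined by EFNA1 as the 1 lower member, beside 33.0% of all genes higher and 32.6% lower. The median log2 fold change of the 8 members was 0.96, against 0.0029 for all genes tested. Among the 8 members tested, both 24 h normalized counts lay above both 6 h values in 6 and below both in 1, beside 41.0% and 40.8% of all genes tested. Since the members were chosen with earlier results of these data known, these figures are no test of the family.

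**Figure D1:**
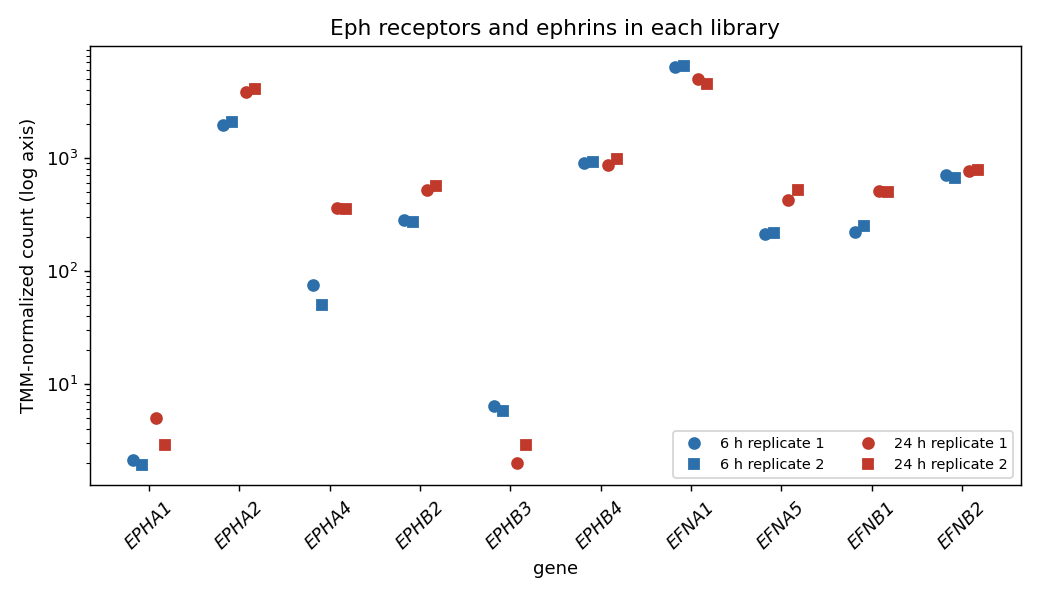
TMM-normalized count of each member (log axis) in the 6 h libraries (blue) and the 24 h libraries (red), with circles for replicate 1 and squares for replicate 2. EPHA4 shows the widest gap between the times, EPHB4 values overlap, and EPHA1 and EPHB3 lie below 10.

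EPHA2 encodes the receptor that ephrin-A1 binds best, and it is known as a receptor of epithelial and cancer cells. It lies on chromosome 1 of hg19 from 16450832 to 16482582 (ENSG00000142627). Its counts were 1817 and 2152 at 6 h and 3798 and 4137 at 24 h, so both later libraries were far above both earlier ones. Normalized counts were 2013 ± 72.9 at 6 h and 3905 ± 171 at 24 h (SD, n = 2). This is a log2 fold change of 0.96 (SE, the standard error, 0.0720, edgeR adjusted P = 6.44e-12).

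EPHA4 encodes a receptor that is unusual in binding both ephrin-A and ephrin-B ligands, and it is best known from axon guidance. On chromosome 2 from 222282747 to 222438922 (ENSG00000116106), it had 70 and 52 counts at 6 h and 363 in each 24 h library. The 24 h libraries were nearly equal and the spread sat in the 6 h libraries, with 62.7 ± 18.2 normalized counts at 6 h and 357 ± 5.94 at 24 h (SD, n = 2). The log2 fold change was 2.52 (SE 0.153, edgeR adjusted P = 7.28e-14). A larger rise was seen in 0.940% of all genes tested, a share that leaves out falls. Leaving out single libraries moved it between 2.24 and 2.84.

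EPHB2 encodes a receptor for ephrin-B ligands that is known for positioning cells in the intestinal crypt. It lies on chromosome 1 from 23037332 to 23241818 (ENSG00000133216) and had 260 and 281 counts at 6 h and 521 and 574 at 24 h. The times did not overlap, with 275 ± 7.84 and 539 ± 27.9 normalized counts (SD, n = 2). Its log2 fold change of 0.97 (SE 0.0999, edgeR adjusted P = 2.95e-09) was close to that of EPHA2.

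EPHB4 encodes the main receptor of ephrin-B2 and is known for its place in vein formation. On chromosome 7 from 100400187 to 100425121 (ENSG00000196411), it had 830 and 949 counts at 6 h and 876 and 1007 at 24 h. These values overlap, and the normalized counts were 903 ± 10.2 and 926 ± 75.8 (SD, n = 2). The log2 fold change was 0.04 (95% interval from -0.13 to 0.20, edgeR adjusted P = 0.709), and its sign turned with library size alone. Any rise of EPHB4 as large as that of EPHB2 lies outside this interval. The position of EPHB4 overlaps SLC12A9, which had between 293 and 463 counts and a log2 fold change of 0.30, so reads of the pair may not be fully separated.

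EPHA1 and EPHB3 were near the limit of detection. EPHA1 had 2 counts in each 6 h library and 5 and 3 at 24 h, a ratio of 1.94 with an exact 95% counting interval from 0.519 to 8.80. EPHB3 had 6 counts in each 6 h library and 2 and 3 at 24 h, a ratio of 0.404 with an interval from 0.111 to 1.23. Both intervals include no change and cover counting error only. No difference was detectable at this depth. EPHA1 overlaps ZYX, which had between 2425 and 5889 counts and was itself called higher, and EPHB3 overlaps EIF2B5 in the table, so even these few reads are of uncertain origin.

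EFNA1 encodes ephrin-A1, the favoured ligand of EPHA2, and lies on chromosome 1 from 155099936 to 155107333 (ENSG00000169242). It had 5878 and 6762 counts at 6 h and 4947 and 4632 at 24 h, so both later libraries were below both earlier ones. Normalized counts were 6416 ± 100.4 and 4718 ± 298 (SD, n = 2). The log2 fold change was -0.44 (SE 0.0728, edgeR adjusted P = 6.96e-06), which is beyond the spread between libraries but short of the fold cutoff. Without the first 24 h library it was -0.50 and just past that cutoff.

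EFNA5 encodes ephrin-A5, which binds EphA receptors and also EPHB2. On chromosome 5 from 106712590 to 107006596 (ENSG00000184349), it had 196 and 227 counts at 6 h and 423 and 529 at 24 h. The 24 h libraries differed more from each other than the 6 h libraries, with 215 ± 4.38 and 468 ± 66.0 normalized counts (SD, n = 2), but the times were well apart. Its log2 fold change was 1.12 (SE 0.114, edgeR adjusted P = 2.29e-09), opposite in sign to that of EFNA1.

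EFNB1 encodes ephrin-B1, a membrane-spanning ligand known for its role in craniofacial development. It lies on chromosome X from 68048840 to 68061990 (ENSG00000090776) and had 206 and 258 counts at 6 h and 512 in each 24 h library. Normalized counts were 235 ± 17.8 and 504 ± 8.38 (SD, n = 2), with no overlap. The log2 fold change was 1.10 (SE 0.104, edgeR adjusted P = 5.94e-10).

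EFNB2 encodes ephrin-B2, the ligand of EPHB4 and a marker of arteries, and lies on chromosome 13 from 107142079 to 107187462 (ENSG00000125266). Its counts were 648 and 696 at 6 h and 764 and 796 at 24 h. Both later libraries were above both earlier ones by a small margin, with 684 ± 22.5 and 768 ± 9.51 normalized counts (SD, n = 2). The log2 fold change was 0.17 (95% interval from -0.0028 to 0.34, edgeR adjusted P = 0.0779) and did not pass the test. The adjusted P was 0.0439 with a replicate block and 0.0392 with upper quartile scaling, and up to 0.294 under the other alternatives, while the fold stayed under the cutoff.

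**Figure D2:**
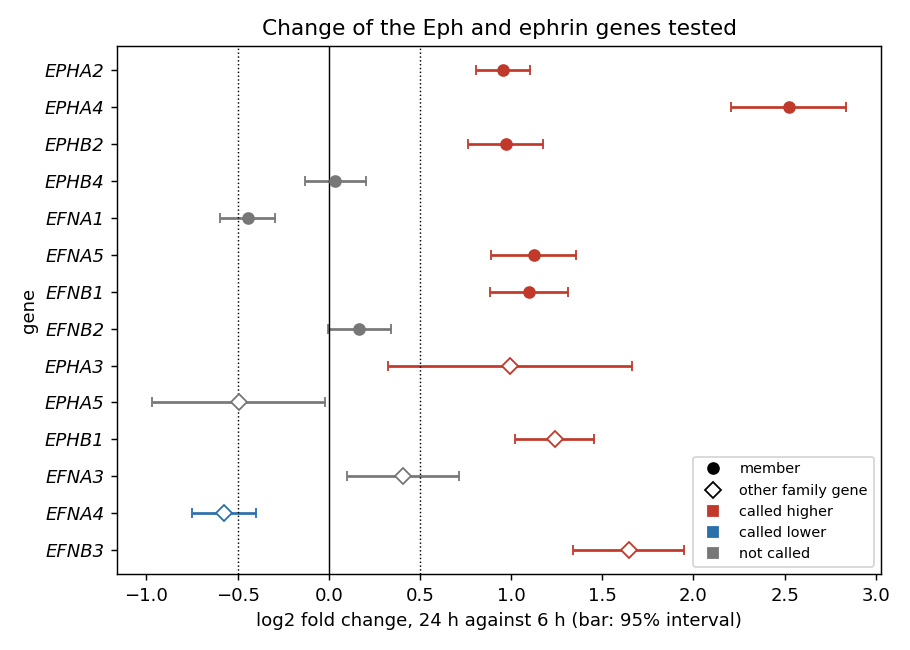
Log2 fold change of 24 h against 6 h with its 95% interval for the 8 members tested (filled circles) and 6 other Eph and ephrin genes (open diamonds), with dotted lines at the fold cutoff of 0.5 in either direction. The intervals of EPHA2, EPHA4, EPHB2, EFNA5, and EFNB1 lie wholly above 0.5, whereas those of EPHB4 and EFNB2 include 0.

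**Figure D3:**
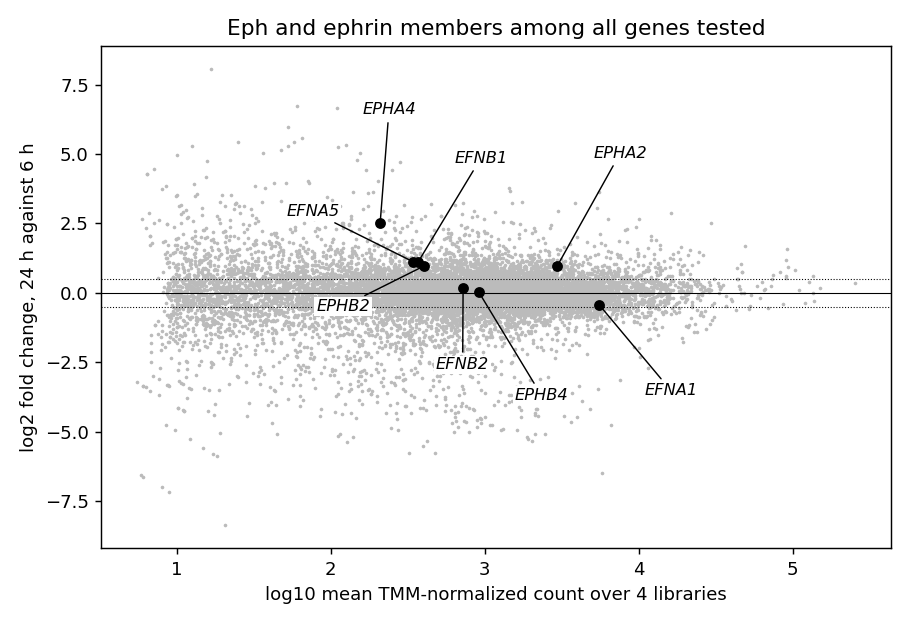
Log2 fold change of 24 h against 6 h plotted against the log10 mean normalized count of all 12876 genes tested (grey), with the 8 members in black and dotted lines at 0.5 and -0.5. EPHA4, at 2.52, stands apart from the other members, which lie between -0.44 and 1.12.

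Ratios of 2 members within a library do not depend on how the libraries are scaled. EPHA2 had 0.309 and 0.318 counts for each count of EFNA1 at 6 h and 0.768 and 0.893 at 24 h. This receptor and its ligand moved in opposite directions, and their ratio was 2.65 times as high at the later time. EFNB1 had 0.318 and 0.371 counts per count of EFNB2 at 6 h and 0.670 and 0.643 at 24 h, a ratio 1.91 times as high. EPHB2 rose against EPHB4 by the same factor of 1.91, from 0.313 and 0.296 to 0.595 and 0.570. The ratio of EPHB4 to EFNB2 was 1.28 and 1.36 at 6 h and 1.15 and 1.27 at 24 h, and here the ranges nearly met. These pairs were chosen after the values were seen. With 2 libraries against 2, an exact permutation test cannot give a two-sided p below 0.333, so no test was made of them.

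Levels of different genes were compared as TMM-normalized CPM (counts scaled to a common library size) per kilobase of the longest protein-coding transcript. EFNA1 was the highest member at both times, with 158 ± 2.47 at 6 h and 116 ± 7.33 at 24 h (SD, n = 2). EPHA2 came next with a level of 19.5 ± 0.707 and then 37.8 ± 1.66, followed by EPHB4 with 7.93 ± 0.0898 and 8.14 ± 0.666. EFNB2 had a level of 5.23 ± 0.172 at 6 h, above the 2.72 ± 0.206 of EFNB1, but at 24 h the libraries of the pair overlapped, with 5.88 ± 0.0728 and 5.84 ± 0.0970. Lower down, EFNA5 had levels of 1.53 ± 0.0312 and 3.33 ± 0.470. EPHB2 was above EPHA4 at 6 h, with 0.953 ± 0.0272 against 0.377 ± 0.109, and below it at 24 h, with 1.87 ± 0.0968 against 2.15 ± 0.0357. EPHA1 and EPHB3 had levels of at most 0.0585 in any library. With the union of all exons as length, EPHB4 was below EFNB1 and EFNB2 at 24 h, with 5.50 against 5.84 and 5.87, so the order of these neighbours depends on the transcript assumed.

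Other genes of the family give the setting of each class. Of the 12 Eph and ephrin genes outside the members, 6 were tested, and 3 were called higher and 1 lower, with a median log2 fold change of 0.70, beside 17.4% and 17.7% of all genes tested. Over the whole family of 22 genes, 14 were tested, 8 were called higher, and 1 lower. EPHB1, a receptor for ephrin-B ligands, rose from 225 and 295 counts to 581 and 685 (log2 fold change 1.24, SE 0.106). EFNB3, the remaining ephrin-B gene, rose more, from 64 and 81 counts to 226 and 242 (log2 fold change 1.64, SE 0.149). EPHA3 was scarce, with 14 and 17 counts at 6 h and 28 and 36 at 24 h, and it was called higher (log2 fold change 0.99, edgeR adjusted P = 0.00928). This call was lost under DESeq2 (adjusted P = 0.0950), without the second 24 h library, and without either 6 h library, where the log2 fold change lay between 0.83 and 1.05.

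EPHA5 had 77 and 62 counts at 6 h and 40 and 62 at 24 h, and these overlapping values gave an edgeR adjusted P of 0.0619. Without the second 24 h library EPHA5 was called lower, with a log2 fold change of -0.82. EPHA6 had 0 and 3 counts at 6 h and 9 and 7 at 24 h, a ratio of 5.17 with an exact 95% counting interval from 1.48 to 27.7. This interval too covers counting error only, not the spread between cultures, and EPHA6 had too few reads to be tested. The other 5 genes, EPHA7, EPHA8, EPHA10, EPHB6, and EFNA2, had at most 1 count in any library.

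Ephrin-A genes EFNA4, EFNA3, and EFNA1 sit together on chromosome 1, and they did not move alike. EFNA4, from 155036207 to 155042029, fell from 752 and 914 counts to 581 and 572, with a log2 fold change of -0.57 (SE 0.0855, edgeR adjusted P = 1.68e-06). EFNA3, from 155036224 to 155060014, had 112 and 115 counts at 6 h and 144 and 167 at 24 h, and its log2 fold change, 0.41, was under the cutoff. Without the first 24 h library it was 0.501 and just past it. The table lists both over the same stretch, so reads of EFNA3 and EFNA4 may not be fully separated, and a second row named EFNA3 had 0 counts. On the far side of EFNA1, 487 bases away, SLC50A1, a sugar transporter gene, was called lower with a log2 fold change of -0.59.

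Summed per kilobase, the EphA receptors had 19.96 and 20.7 at 6 h and 39.3 and 41.7 at 24 h, of which EPHA2 made up between 93.3% and 96.6%. The EphB receptors summed to 10.9 and 11.3 at 6 h and 14.2 and 16.02 at 24 h. Within them the share of EPHB4 was 72.3% and 70.8% at 6 h and 53.9% and 53.7% at 24 h, as EPHB1 and EPHB2 rose. All these sums and shares use the longest protein-coding transcript. With the union of exons, mean levels at 24 h were 5.50 for EPHB4, 4.07 for EPHB1, and 1.65 for EPHB2. Whether EPHB4 made up most of the EphB sum at 24 h therefore depends on the length assumed. Ephrin-A ligands summed to 185 and 190 at 6 h and to 145 and 135 at 24 h, and EFNA1 held between 82.2% and 84.4% of this. Ephrin-B ligands summed to 8.75 and 8.90 at 6 h and to 14.4 and 14.5 at 24 h, and the share of EFNB2 was 61.2% and 57.4% at 6 h and 40.4% and 40.9% at 24 h. In each class the sums of the 6 h and 24 h libraries were apart, with receptors of both kinds and ephrin-B ligands higher at 24 h and ephrin-A ligands lower. Such a gap was common, with both 24 h libraries above both 6 h libraries in 41.0% of all genes tested and below in 40.8%. The lower ephrin-A sum followed EFNA1 and EFNA4, whereas EFNA5 and EFNA3 had log2 fold changes of 1.12 and 0.41.

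**Figure D4:**
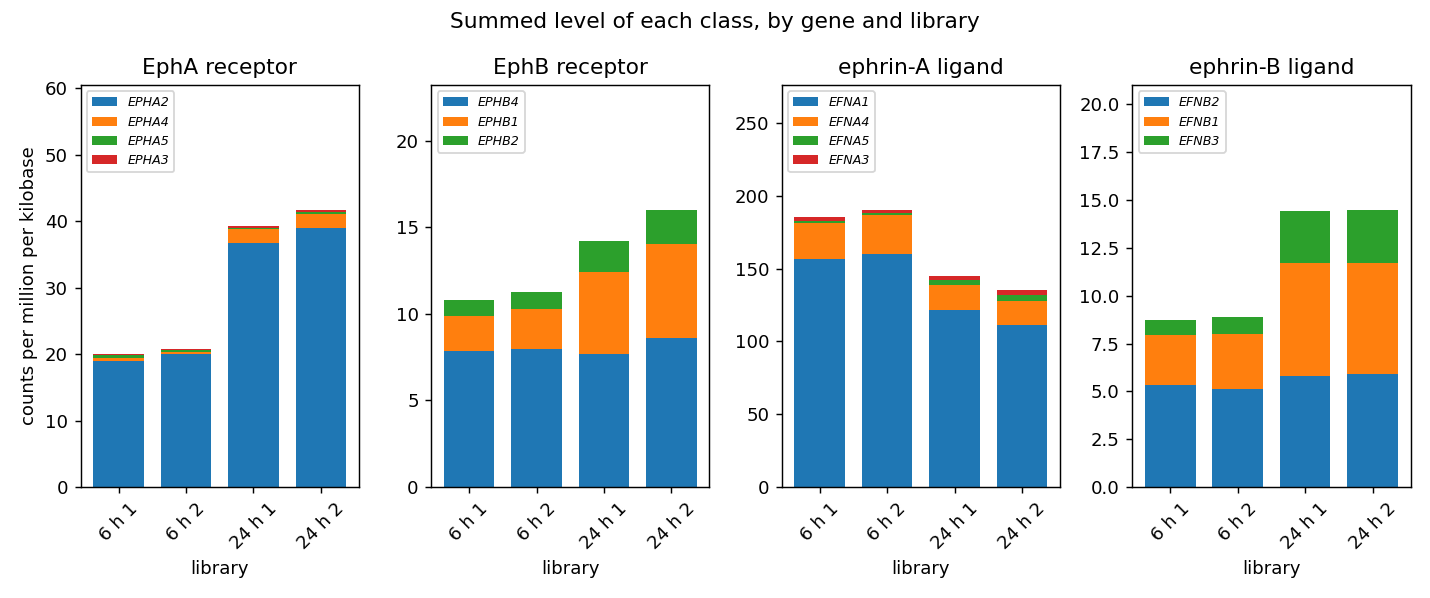
CPM per kilobase in each library, summed over the genes of 4 classes and split by gene (genes over 0.1 at either time), with a separate linear axis from 0 for each class. Between 6 h and 24 h the EphA sum went from at most 20.7 to at least 39.3, while the ephrin-A sum went from at least 185 to at most 145.

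The 300 bases around the start of transcription, 250 before and 50 after it, were taken from RefSeq on build GRCh38.p14, whose positions differ from those of the hg19 table. All 10 members had an entry, in 12 windows, since EPHA4 and EPHB2 have 2 starts each, those of EPHB2 only 1 base apart. The windows printed here are those of the member with the largest rise, of the most abundant receptor, and of the abundant ligand that was lower at 24 h. Each runs 5′ to 3′ along the gene, and capitals mark the GC box, GGGCGG or its reverse complement, a sequence bound by SP1 and related factors.
EPHA4 upstream start, chr2:221574153-221574452, minus strand: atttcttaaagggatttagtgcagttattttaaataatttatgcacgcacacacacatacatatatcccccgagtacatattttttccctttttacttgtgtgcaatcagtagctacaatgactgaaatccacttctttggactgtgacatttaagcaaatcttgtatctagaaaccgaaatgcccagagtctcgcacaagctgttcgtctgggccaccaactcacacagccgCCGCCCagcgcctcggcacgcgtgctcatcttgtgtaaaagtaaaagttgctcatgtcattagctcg
EPHA4 downstream start, chr2:221572255-221572554, minus strand: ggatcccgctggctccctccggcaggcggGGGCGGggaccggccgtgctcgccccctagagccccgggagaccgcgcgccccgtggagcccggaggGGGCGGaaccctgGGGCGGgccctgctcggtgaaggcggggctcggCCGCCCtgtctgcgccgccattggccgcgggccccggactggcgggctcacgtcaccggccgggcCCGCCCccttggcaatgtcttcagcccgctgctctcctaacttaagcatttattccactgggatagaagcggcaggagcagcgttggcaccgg
EPHA2, chr1:16156020-16156319, minus strand: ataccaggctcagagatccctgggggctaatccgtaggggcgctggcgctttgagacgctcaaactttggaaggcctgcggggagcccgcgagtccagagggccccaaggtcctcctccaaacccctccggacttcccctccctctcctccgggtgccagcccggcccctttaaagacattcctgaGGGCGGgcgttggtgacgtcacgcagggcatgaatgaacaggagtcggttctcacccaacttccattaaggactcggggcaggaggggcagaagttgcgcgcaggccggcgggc
EFNA1, chr1:155127626-155127925, plus strand: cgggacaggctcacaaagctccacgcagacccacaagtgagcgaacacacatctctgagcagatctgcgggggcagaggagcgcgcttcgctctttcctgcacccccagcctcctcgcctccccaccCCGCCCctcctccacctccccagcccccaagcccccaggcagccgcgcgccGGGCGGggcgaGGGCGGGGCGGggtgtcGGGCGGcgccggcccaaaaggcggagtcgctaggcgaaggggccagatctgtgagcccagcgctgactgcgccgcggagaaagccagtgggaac

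A GC box occurred in 12 of the 12 member windows, against 64.7% of the windows of the genes tested and 44.95% of all 35116 windows. The 12 windows include those of EPHA1 and EPHB3, which were not among the genes tested. G and C made up 43.0% to 83.0% of the member windows, against a median of 64.7% in the windows of genes tested. The part of this make-up in the GC box count was not tested. The EPHA4 starts differ in make-up, with 43.0% G and C and 1 GC box at the upstream start and 74.3% and 5 at the downstream start, and the counts do not say which start was used. EFNA1 holds 5 GC boxes, of which a neighbouring pair shares 1 base. EPHA2 holds 1 GC box and, 73 bases before the start, the only TEAD motif (GGAATG on either strand) in the member windows, a motif found in 11.6% of the windows of genes tested. The AP-1 motif TGANTCA, the ETS core CCGGAA, and the E2F motif TTCCCGC, searched on both strands, had 0 matches in the member windows, against 5.50%, 25.9%, and 9.36% of the windows of genes tested. GC boxes were present in members that rose and in members that did not.

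Of 34 partners that carry the signal from the receptors, 31 were tested, and 8 were called higher and 3 lower, beside 17.4% and 17.7% of all genes tested. Their median log2 fold change was 0.06. Among the guanine nucleotide exchange factors, which switch on small GTPases, KALRN had a log2 fold change of 1.25 (215 ± 15.2 to 512 ± 14.5 normalized counts, SD, n = 2), VAV3 of 1.25, and ARHGEF5 of 0.90. In the other direction, NGEF, which encodes ephexin and acts next to EPHA4, fell from 1326 and 1395 counts to 508 and 599, a log2 fold change of -1.35 (SE 0.0849). TIAM1, a Rac exchange factor, had a log2 fold change of -0.79, and the adaptor SH2D3C, which binds Eph receptors, fell from 138 and 145 counts to 47 and 41 (log2 fold change -1.73, SE 0.185).

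On the side of reverse signalling, 9 of 10 listed genes were in the table and tested. Of these, 2 were called higher and 0 lower, beside 17.4% and 17.7% of all genes tested, with a median log2 fold change of 0.39. GRIP1, a scaffold with PDZ domains that binds ephrin-B tails, had 81 and 77 counts at 6 h and 144 in each 24 h library, a log2 fold change of 0.82 (SE 0.163). PTPN13, a phosphatase recruited to ephrin-B, had 1314 and 1531 counts at 6 h and 2475 and 2371 at 24 h (log2 fold change 0.72, SE 0.0712). Of 7 proteases and phosphatases that act on Eph receptors or ephrins, 6 were tested. Of these, 1 was called higher and 0 lower, beside 17.4% and 17.7% of all genes tested, so the list gives no result beyond that share. The called gene was RHBDL2, a rhomboid protease that cleaves ephrin-B3. It had 15 and 12 counts at 6 h and 33 and 40 at 24 h and a log2 fold change of 1.38 (SE 0.329). That call was lost without the second 6 h library, which left 0 of the list called higher.

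**Figure D5:**
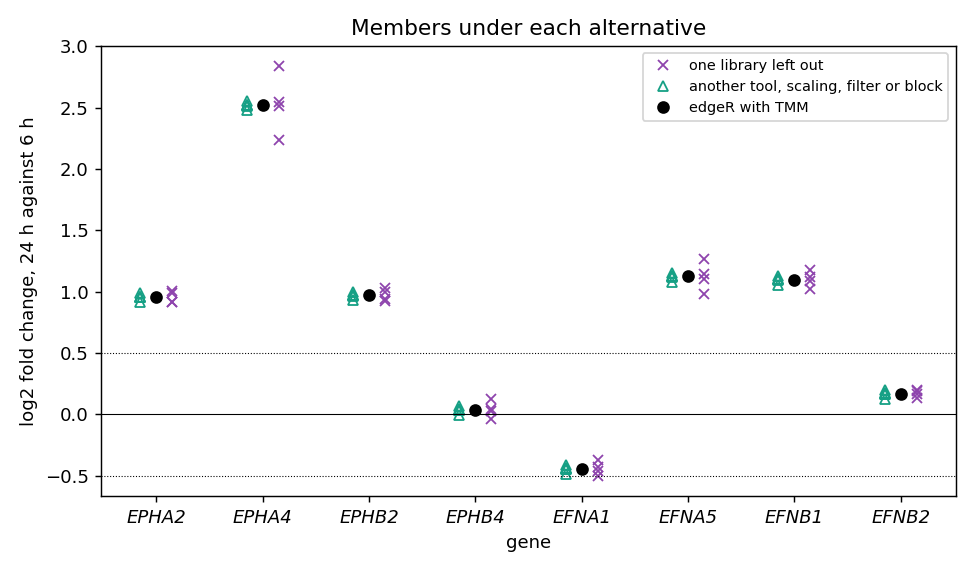
Log2 fold change of the 8 members tested under edgeR with TMM (black), under another tool, scaling, filter, or block (green), and with one library left out (purple), with dotted lines at 0.5 and -0.5. EPHA4 varies most, from 2.24 to 2.84, and EPHB4 stays between -0.04 and 0.12 around 0.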

How the data were processed

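TPC1 libraries treated with BLU6864 for 6 h or 24 h, 2 at each time, were grouped by their titles. Per the labels, the authors aligned reads with STAR 2.3 to hg19 and used DESeq2. The methods name a later version of STAR, and which version gave the deposited counts is not settled here. The raw read count per gene was deposited by the authors without normalization, and the counting program and strand setting are not given in the sources used here. The authors also deposited a normalized signal (the count divided by a size factor), and from their DESeq2 comparison a log2 fold change with its error, a Wald score, and a p-value with its adjusted form. None of these was used. The number of columns of values that belong to no sample was 0.

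The test was that of edgeR 4.0.16 (R 4.3.3) on raw counts, with filterByExpr (12876 of 20372 genes kept), TMM normalization, and the quasi-likelihood test, and P was adjusted over all genes tested. The SE is the size of the log2 fold change divided by the square root of F. Normalized counts are counts scaled to the mean effective library size. Libraries of one time were not copies of each other (chi-square divided by its degrees of freedom 6.67 for the 24 h pair, 8.66 for the 6 h pair). Lengths came from GENCODE v44, matched by Ensembl identifier for 10 of 10 members. The procedure was tested on simulated data. Plots were drawn with matplotlib 3.10.9.

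The members and gene lists were chosen with earlier results of these data known. All members are named, other Eph and ephrin genes if they had more than 3 counts in both libraries of a time, and from each list of partners the called genes with the 3 largest rises and the 3 largest falls. Names outside this rule, such as the 5 Eph and ephrin genes with at most 1 count, the marker genes, and neighbouring genes, were picked with their values in view. Alternatives were DESeq2 1.42.0, other scalings and filters, a replicate block, another call rule, and each library left out. The result of some single genes is not reported here.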

Additional observations from a re-analysis of the deposited data

How the results depend on the processing

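The 5 members called higher (EPHA2, EPHA4, EPHB2, EFNA5, and EFNB1) were called under all 10 alternative fits, and EPHB4 and EFNB2 under none of them. With an adjusted P under 0.05 and no fold cutoff, 4247 of all genes were higher and 4196 lower, against 2238 and 2278 with the fold cutoff and an unadjusted P under 0.01. The same rule gave 1 lower member (EFNA1), 13 higher and 7 lower forward partners, 6 higher and 1 lower reverse partners, 2 higher and 1 lower proteases and phosphatases, and 1 higher epithelial marker. The log2 fold change of EPHB4 was -0.0066 with library size alone and ranged from -0.0426 to 0.125 with single libraries left out, and its sign carries no call. That of EFNA1 ranged from -0.502 to -0.373, which moved the number of lower members from 0 to 1, the latter without the first 24 h library. Leaving out single libraries gave 2 to 4 higher and 1 to 2 lower genes among the other Eph and ephrin genes, against 3 and 1, with EPHA3 lost without the second 24 h library or either 6 h library, EFNA3 gained without the first 24 h library, and EPHA5 gained as lower without the second 24 h library. It also gave 0 to 2 higher and 0 to 1 lower proteases and phosphatases, 1 to 2 lower endothelial markers, and 0 to 1 higher fibroblast markers. Library size alone gave 1 lower protease or phosphatase, no filter on low counts gave 2 lower epithelial markers, at least 10 counts in every library gave 1 lower endothelial marker, and DESeq2 gave 2 higher genes among the other Eph and ephrin genes, 1 lower endothelial marker, and 0 higher fibroblast markers. With the union of exons as length, levels per kilobase at 6 h were 0.0166 for EPHA1, 18.6 for EPHA2, 0.840 for EPHB2, 5.36 for EPHB4, 113 for EFNA1, and 1.43 for EFNA5, and at 24 h 36.1 for EPHA2, 1.81 for EPHA4, 1.65 for EPHB2, 5.50 for EPHB4, and 83.3 for EFNA1. The causes of these shifts were not tested, apart from the rule or length that each alternative sets.

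The replicate numbers are shared by the times, but what they mark is not stated, and deviations of same-numbered libraries correlated at 0.0844 across genes. A replicate block gave 2283 higher and 2313 lower genes and left 5 members higher and 0 lower by the fold and P cutoffs, while the adjusted P of EFNB2 went from 0.0779 to 0.0439 (0.0392 with upper quartile scaling). With 2 libraries a time, counts as low as those of EPHA1 and EPHB3 limit what can be seen, and outlying libraries could not be tested for.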
